A study of Mus musculus with 6 samples.

Results

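The SRCAP and p400/TIP60 complexes, which place the histone variant H2A.Z into chromatin, were examined in mouse embryonic fibroblasts (MEFs) through the RNA of 10 of their subunit genes. These were *Srcap*, *Ep400*, *Ruvbl1*, *Ruvbl2*, *Vps72*, *Znhit1*, *Dmap1*, *Kat5*, *Yeats4* and *Trrap*. All 10 were found among the 19275 genes with reads, and each was represented by its RefSeq transcript with the highest mean. RNA-Seq libraries were made from total RNA of 3 cultures of WT MEFs and 3 of Anp32e null MEFs, which lack the H2A.Z chaperone ANP32E. Both genotypes were primary cells from embryos, were grown in the same serum-containing medium and were used before passage 8. How many embryos gave rise to the cultures is not given in the sources used here, so the 3 libraries of a genotype may be repeat cultures of few embryos.

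The deposited table holds 1 value per transcript that is not a comparison of the genotypes, the authors' mean over all 6 libraries of counts divided by size factors. WT and Anp32e null MEFs are therefore described together, as 1 level per gene, and no difference between them was computed. Values per library were not used here, so no SD between replicates stands behind any level. The only error that can be given is that of counting reads, whose standard error was between 0.407% of the mean for *Ruvbl2* and 0.992% for *Dmap1*. The spread between cultures is unknown and may be larger. Single reads in the lowest means gave the relative depth of the libraries, with size factors from 0.909 to 1.13. The targeted gene *Anp32e* had an authors' mean of 2190 normalized counts, but this mean pools both genotypes and does not check the labels.

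H2A.Z is exchanged for canonical H2A at promoters and enhancers by large remodelers. SRCAP and EP400 are the ATPases that drive the exchange, while RUVBL1 and RUVBL2 form a ring on which both complexes are built. VPS72 binds H2A.Z and hands it to the ATPase, and ANP32E takes H2A.Z away from chromatin. The p400/TIP60 complex also holds KAT5, an acetyltransferase of histones H2A and H4, and TRRAP, a very large scaffold protein.

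Levels of different genes are given as mean normalized counts per kilobase (kb) of exon, since long transcripts gather more reads. On this scale *Ruvbl2* was highest, at 5443, followed by *Znhit1* (3634), *Ruvbl1* (2821), *Vps72* (2069) and *Yeats4* (1761). *Kat5* had 1206 and *Dmap1* 1074. *Trrap* (518), *Ep400* (379.8) and *Srcap* (362) were lowest, so that the highest gene had 15.0 times the level of the lowest. Per kb of coding sequence the top place turned, with *Znhit1* at 9564 above *Ruvbl2* at 7187 and *Yeats4* at 3431 beside *Ruvbl1* at 3454, and *Znhit1* had 24.3 times the level of *Srcap*, which was again lowest at 393. All 10 lay above the median of the 18067 autosomal genes ranked, which was 149 per kb. Their median was 1483 per kb, at percentile 84.9 of these genes, and 3 of them, *Ruvbl2*, *Znhit1* and *Ruvbl1*, were in the top 10% of genes. In cultures of this kind fewer expressing cells and less RNA per cell cannot be told apart, and none of these comparisons could be set against a spread between replicates. Neighbours in the order differed by more than counting error alone, the closest pair being *Ep400* and *Srcap* with a ratio of 1.05 (95% counting interval 1.03 to 1.07).

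**Figure D1:**
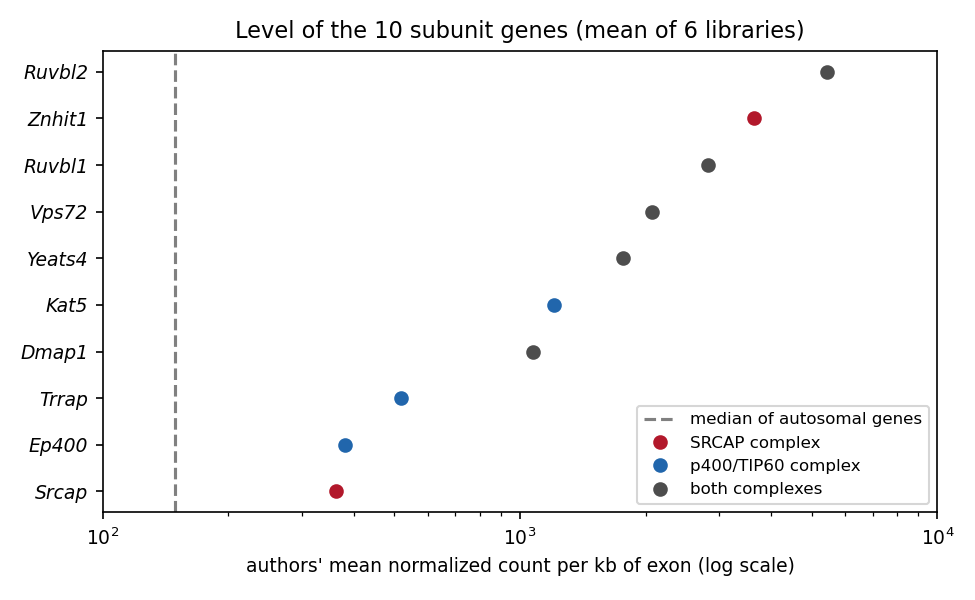
Level of each of the 10 subunit genes as the authors' mean normalized count per kb of exon over 6 libraries of both genotypes (log axis); colours give the complex, the dashed line is the median of all autosomal genes, and the 95% counting intervals are narrower than the points. All 10 genes sit to the right of the dashed line, with *Ruvbl2* at 5443 and *Srcap* at 362.

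The genes of the remodeler ATPases, *Srcap* and *Ep400*, were the lowest of the set per kb. *Srcap*, which encodes the ATPase of the SRCAP complex, lies on chromosome 7 of GRCm38 (mm10) from 127513018 to 127561219 on the plus strand and has 34 exons that sum to 10654 bases. The authors' mean was 3855 normalized counts (95% counting interval 3805 to 3904). *Ep400*, which encodes the ATPase of the p400/TIP60 complex, lies on chromosome 5 from 110664373 to 110770527 on the minus strand, with 52 exons of 10608 bases and an authors' mean of 4029 normalized counts (3979 to 4080). Both ATPases were thus read at nearly the same level, 362 per kb for *Srcap* and 379.8 per kb for *Ep400*. A predicted gene on the same strand, *Gm42715*, covers 91.4% of the exon bases of *Srcap* in GENCODE, and it is not among the genes of the table. Reads from such a transcript would be counted for *Srcap* as well.

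Beside other remodeler ATPases the pair took a middle place. Of 11 such genes on autosomes, 7 were higher than both *Srcap* and *Ep400* and 4 were lower. *Chd4*, the ATPase of the NuRD complex, had 2841 per kb and *Smarca4*, an ATPase of the BAF complex, 2278, which is 6.30 times the level of *Srcap*. *Chd8* was next above them at 399 per kb and *Chd2* next below at 182. *Chd9* (72.5) and *Chd7* (3.06) were lowest. *Ino80*, the ATPase of another remodeler that acts on H2A.Z nucleosomes, had 255 per kb, and *Ep400* had 1.49 times and *Srcap* 1.42 times its level.

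The ring subunits were among the highest. *Ruvbl2* lies on chromosome 7 from 45421898 to 45434623 on the minus strand, with 15 exons of 1834 bases and an authors' mean of 9983 normalized counts (95% counting interval 9903 to 10063). *Ruvbl1* lies on chromosome 6 from 88465409 to 88497572 on the plus strand, with 11 exons of 1675 bases and a mean of 4725 (4670 to 4780). Both proteins alternate in 1 ring, yet their RNA differed in level. Per kb, *Ruvbl2* had 1.93 times the level of *Ruvbl1* (95% counting interval 1.90 to 1.96). The genes also serve other assemblies, such as INO80 and the R2TP chaperone complex, so their level does not belong to the H2A.Z complexes alone. Against *Srcap*, *Ruvbl1* was at 7.80 times and *Ruvbl2* at 15.0 times its level per kb.

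*Vps72*, which encodes the H2A.Z chaperone YL1 of both complexes, lies on chromosome 3 from 95111022 to 95123051 on the plus strand. Its 6 exons sum to 1456 bases and its authors' mean was 3012 normalized counts (95% counting interval 2969 to 3056). At 2069 per kb it had 5.72 times the level of *Srcap*. *Yeats4*, which encodes GAS41, a reader of acetylated histones, lies on chromosome 10 from 117215222 to 117224507 on the minus strand, with 7 exons of 1327 bases and a mean of 2336 (2298 to 2375). *Dmap1*, a structural subunit of both complexes, lies on chromosome 4 from 117674681 to 117682273 on the minus strand, with 11 exons of 1566 bases and the smallest mean of the set, 1682 (1650 to 1716). *Yeats4* was at 1.64 times the level of *Dmap1* per kb of exon and at 2.86 times per kb of coding sequence.

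*Znhit1*, which encodes a small zinc finger subunit of the SRCAP complex, lies on chromosome 5 from 136982164 to 136988021 on the minus strand. Its 5 exons sum to 1208 bases, and the authors' mean of the transcript was 4390 normalized counts (95% counting interval 4337 to 4443). The gene stood at 10.0 times the level of *Srcap* per kb of exon and at 24.3 times per kb of coding sequence, which makes up 459 of its exon bases. When the median over a gene's transcripts was taken instead, its mean fell to 3802 normalized counts, the largest move of the 10 members under that alternative.

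*Kat5* and *Trrap* belong to the acetyltransferase side of the p400/TIP60 complex. *Kat5* lies on chromosome 19 from 5603014 to 5610237 on the minus strand. The transcript with the highest mean was a noncoding one, NR_155544, with 2658 normalized counts. Since it was not matched to a GENCODE transcript, the level per kb was taken from NM_178637, which has 14 exons of 2154 bases and a mean of 2597 (95% counting interval 2557 to 2638). *Trrap*, which is also a subunit of the SAGA complex, lies on chromosome 5 from 144768794 to 144859778 on the plus strand. Its 71 exons sum to 12479 bases, and its mean was 6464 (6400 to 6529). Per kb, *Kat5* had 3.17 times and *Trrap* 1.36 times the level of *Ep400*. Other *Kat5* transcripts with a length gave 1830 (NM_001199247), 1332 (NM_001199248) and 802 (NM_001199249) per kb. NM_001199248 (mean 2537) and NM_001199249 (mean 1527) were matched to the same GENCODE transcript of 1905 bases, which need not fit both. With these lengths the place of *Kat5* depends on the transcript, from above *Yeats4* to below *Dmap1*. The lower end rests on NM_001199249 alone.

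When the genes were grouped by complex, the 5 that both complexes share had a median of 2069 per kb. The 3 of the p400/TIP60 complex alone had a median of 518. The pair of the SRCAP complex alone lay far apart, at 362 for *Srcap* and 3634 for *Znhit1*. The order was also read against transcript length. *Srcap*, *Ep400* and *Trrap*, with 10608 to 12479 exon bases, had between 362 and 518 per kb, and the other 7, with 1208 to 2154 bases, had between 1074 and 5443. These sets did not overlap. Across the 10 genes, which share the same libraries, length and level per kb had a Spearman's rho of −0.66, against −0.23 across 13504 autosomal genes whose mean was 10 or more. Since the level is divided by the length, a negative rho is partly built in, and with the undivided mean rho was positive, 0.35 for the members and 0.13 for those autosomal genes. Among genes whose exon length was within 1.2 times their own, *Trrap* stood at percentile 92.0, *Ep400* at 84.2 and *Srcap* at 83.5. By the same measure *Ruvbl2* stood at 94.8, *Znhit1* at 89.0, *Ruvbl1* at 88.1, *Vps72* at 83.2, *Yeats4* at 79.0, *Kat5* at 78.8 and *Dmap1* at 73.5. By this percentile the 3 long genes were thus no longer the lowest of the set. Relative to the median of like-length genes, *Srcap* (362 against 106 per kb) and *Ep400* (379.8 against 106) still stood lowest. *Kat5* had 1206 against 172, *Trrap* 518 against 70.8 and *Dmap1* 1074 against 129.

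**Figure D2:**
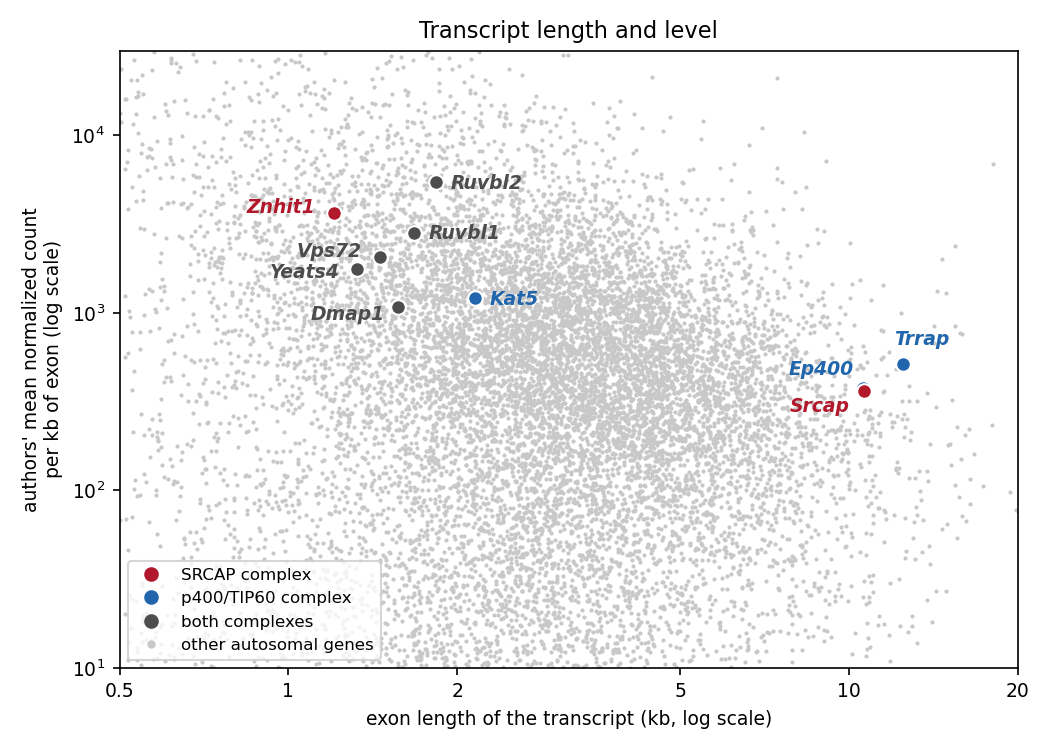
Exon length of the transcript in kb (log axis) against the authors' mean normalized count per kb of exon (log axis) for the 10 subunit genes, coloured by complex, and for other autosomal genes (grey) that fall within the axes. *Srcap*, *Ep400* and *Trrap* lie together at the right at 362 to 518 per kb, and the other 7 genes lie at the left at 1074 to 5443 per kb.

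Of the members, 7 were listed with 1 transcript and 3 with several. Both transcripts of *Ep400* had nearly the same authors' mean, 4029 normalized counts for NM_029337 and 4023 for NM_173066. Of the 8 *Kat5* transcripts, 7 had between 2535 and 2658 normalized counts, and NM_001199249 had 1527, which is 57.5% of the highest. Near-equal means of this kind were common in the table. Of 6075 autosomal genes that had several transcripts and a mean of 10 or more, 65.9% had all of them within 5% of the highest, and 1909 genes had transcripts with exactly the same mean. Reads in shared exons were thus counted for each transcript, and the values do not divide a gene's reads between its transcripts.

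The *Znhit1* transcripts differed more. NM_027318 had 4390 normalized counts, NM_001310748 had 3802 and NM_001310747 had 3788. The model of NM_027318 has 690 bases that NM_001310748 lacks, and NM_001310748 has 552 bases that NM_027318 lacks, 214 of them in exons of other genes, so the 588 normalized counts between them are a net difference. Of the 690 bases, 315 lie in exons of *Plod3*, a collagen lysyl hydroxylase gene on the opposite strand with 8140 normalized counts and 2482 per kb. The library kit marks strand, but whether the counting used it is not given in the sources used here, and the part of *Plod3* reads in the value was not tested. The lower transcripts gave 3553 per kb for NM_001310748 and 5119 for NM_001310747, and with both, per kb of exon, *Znhit1* was below *Ruvbl2* and above *Ruvbl1*. Per kb of coding sequence it was above both. *Kat5* likewise shares 426 of its exon bases with *Rnaseh2c* on the opposite strand, which had 3683 normalized counts.

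**Figure D3:**
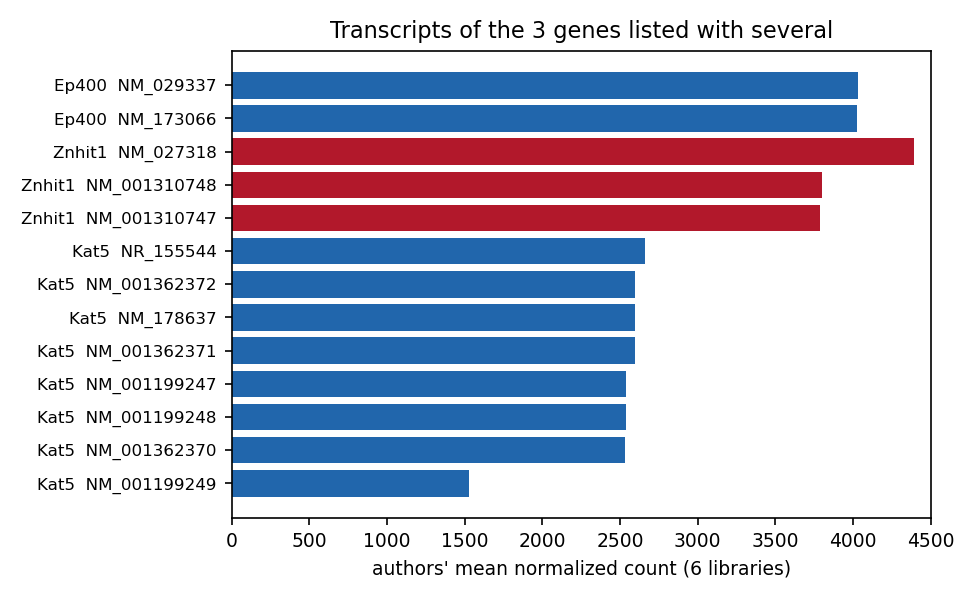
Authors' mean normalized count over 6 libraries (bars, from 0) for every listed transcript with reads of *Ep400*, *Znhit1* and *Kat5*, the members listed with several. The *Ep400* bars are nearly equal, 1 *Znhit1* bar stands above the other two at 4390, and 1 *Kat5* bar stands at 1527 below 7 bars of 2535 to 2658.

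Whether the start of a *Znhit1* transcript bears on the values above was not tested. Its transcripts begin at separate places, that of NM_001310748 in GENCODE between a far and a near start. The bases just before the far and the near start are shown. They are from RefSeq on GRCm38.p6, read on the minus strand from 5′ to 3′, and the last base lies next to the start site. The far start, nearest to NM_027318, has chr5:136987960-136988079 before it, and part of this stretch lies inside the GENCODE transcript. The near start, nearest to NM_001310747, has chr5:136986905-136987024. This near stretch lies wholly inside the spans of the GENCODE transcripts of NM_027318 and NM_001310748. Capitals mark CACGTG, an E box, in the first and CCGGAAG, an ETS site, in the second.
Znhit1 far start: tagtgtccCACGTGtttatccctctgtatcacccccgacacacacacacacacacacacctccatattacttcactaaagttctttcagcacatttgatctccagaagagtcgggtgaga
Znhit1 near start: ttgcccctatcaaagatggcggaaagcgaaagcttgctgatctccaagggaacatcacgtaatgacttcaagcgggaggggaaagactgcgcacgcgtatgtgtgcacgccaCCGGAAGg
In the 250 bases before the start, the far one had 9 CpG pairs and the near one 14.

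The ring pair and the shared subunits *Dmap1* and *Yeats4* are shown in the same way, with the motifs named below in capitals. *Ruvbl1* and *Ruvbl2* are printed because the levels of the pair differed. *Dmap1* and *Yeats4* are printed because each holds 1 motif more than once, as some other members also do. The stretches are chr6:88465289-88465408 on the plus strand for *Ruvbl1* and chr7:45434465-45434584 on the minus strand for *Ruvbl2*. Those of *Dmap1* and *Yeats4*, both on the minus strand, are chr4:117682226-117682345 and chr10:117224508-117224627. The *Ruvbl2* stretch lies wholly inside the span of the GENCODE transcript used for its level, and the *Dmap1* stretch lies partly inside its own.
Ruvbl1: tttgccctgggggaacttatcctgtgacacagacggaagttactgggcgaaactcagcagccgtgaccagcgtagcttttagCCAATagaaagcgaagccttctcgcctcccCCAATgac
Ruvbl2: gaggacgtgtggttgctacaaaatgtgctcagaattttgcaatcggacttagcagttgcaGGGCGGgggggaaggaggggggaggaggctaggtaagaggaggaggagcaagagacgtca
Dmap1: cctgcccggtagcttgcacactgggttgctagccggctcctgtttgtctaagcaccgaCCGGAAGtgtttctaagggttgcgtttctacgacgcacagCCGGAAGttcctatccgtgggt
Yeats4: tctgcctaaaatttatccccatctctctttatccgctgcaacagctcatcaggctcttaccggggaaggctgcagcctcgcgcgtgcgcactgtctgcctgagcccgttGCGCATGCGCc
The printed bases before *Ruvbl1* hold CCAAT, the NF-Y box, 2 times, and those before *Dmap1* hold CCGGAAG 2 times. The printed bases before *Yeats4* hold GCATGCGC, the core of an NRF1 site, as overlapping matches on both strands, which count as 2. CCAAT did not set the ring pair apart. In the 250 bases searched it was counted 2 times before *Ruvbl1* and 2 times before *Ruvbl2*, where both matches lie outside the printed stretch. GGGCGG, the SP/KLF box, was counted 2 times before *Ruvbl2*, with 1 match printed, and 0 times before *Ruvbl1*.

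Promoters were found for 9 of the members, all but *Vps72*, and motifs were searched on both strands in the 250 bases before the start nearest to the transcript. That start lay 1035 bases upstream of the GENCODE start for *Srcap* and 190 bases upstream for *Ep400*. It lay downstream of it for *Ruvbl2* (159 bases), *Kat5* (143), *Znhit1* (62) and *Dmap1* (48), and at it for the others. Where it lay downstream, part of the bases searched falls inside the span of the GENCODE transcript. CCAAT was present before *Ruvbl1*, *Ruvbl2*, *Kat5* and *Yeats4*, 4 of 9 promoters, against 35.0% of the 13451 promoters of genes with a mean of at least 10. GGGCGG, the SP/KLF box, was present before *Srcap*, *Ep400*, *Ruvbl2* and *Trrap*, also 4 of 9, against 57.2%. CACGTG was present before *Znhit1* and *Kat5* (8.20% of those promoters), CCGGAAG before *Dmap1* (12.8%) and GCATGCGC before *Yeats4* (4.05%). Over all 32851 promoters the shares were 33.8% for CCAAT, 32.7% for GGGCGG, 6.02% for CACGTG, 6.91% for CCGGAAG and 2.26% for GCATGCGC. None of these motifs was present in all 9 promoters. The number of CpG pairs went from 6 before *Ruvbl1* to 26 before *Trrap*, with a median of 11 against 15 for the promoters of genes with a mean of at least 10. A match describes the letters of a promoter and does not show that a factor binds there.

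Other genes of the same machinery were examined with lists. Of 10 further subunits of either complex, 9 lay above the median gene, with a median of 352 per kb against 1483 for the members and 149 for all genes ranked. *Actl6a*, an actin-related subunit shared with BAF, was highest at 2160 per kb, and *Morf4l1*, a chromodomain subunit, followed at 1541. *Mbtd1*, a reader of methylated histone H4, was lowest at 105. *Actr6*, the actin-related subunit of the SRCAP complex, had 225 per kb, below *Srcap* itself. Of these 10 genes, 5 lay below *Srcap*, the lowest of the members, and 5 above it. Taking both lists together, 19 of 20 subunit genes lay above the median gene. The 12 listed genes of the INO80 complex had a median of 694 per kb, and 11 of them lay above the median gene. This list leaves out *Ruvbl1* and *Ruvbl2*, which also serve INO80 but are counted among the members. Its median beside that of the members thus depends on where shared genes were placed. *Mcrs1* (2218) and *Ino80e* (2103) were highest, and *Nfrkb* (207) and *Ino80d* (87.9) were lowest.

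**Figure D4:**
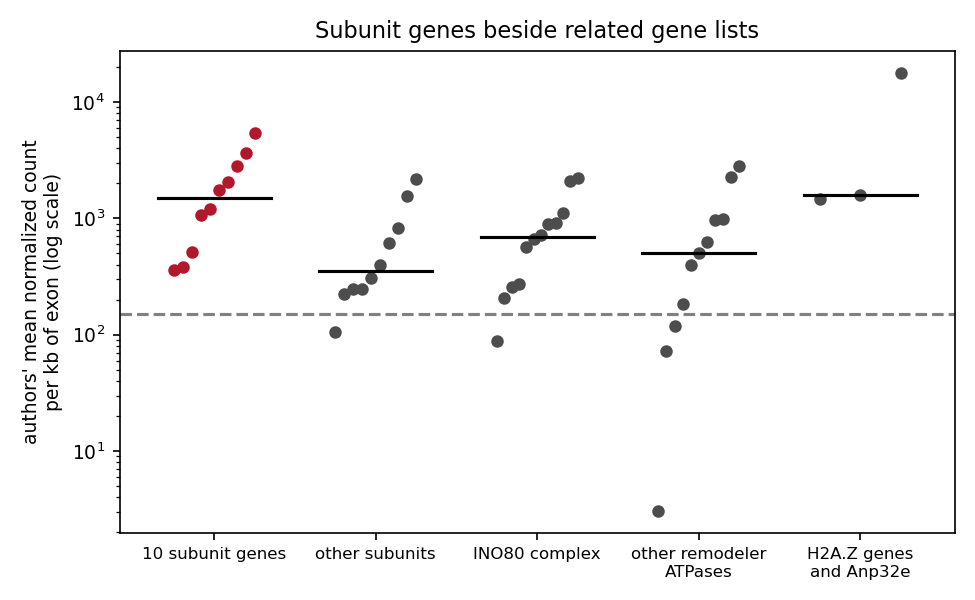
Authors' mean normalized count per kb of exon (log axis) for the 10 subunit genes (red), 10 other subunits, 12 genes of the INO80 complex, 11 other remodeler ATPases, and the H2A.Z genes with *Anp32e*; each point is a gene, solid lines are list medians and the dashed line is the median of all autosomal genes. The medians are 1483 for the 10 genes, 352 for other subunits, 694 for INO80 without *Ruvbl1* and *Ruvbl2*, and 506 for the ATPases.

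The substrate of the complexes is encoded by *H2afz* (H2A.Z.1) and *H2afv* (H2A.Z.2). *H2afz* had 17860 per kb, at percentile 98.8 of autosomal genes, and *H2afv* had 1476, a ratio of 12.1. *H2afz* was higher than each of the 10 members, from 3.28 times the level of *Ruvbl2* to 49.4 times that of *Srcap*. *H2afv* was lower than *Ruvbl1*, *Ruvbl2*, *Vps72*, *Znhit1* and *Yeats4* and higher than the other 5 members. The chaperone gene *Anp32e* had 1586 per kb, a level that pools libraries with and without the intact gene. It was 0.766 times the level of *Vps72*, the chaperone that acts in the opposite direction. Several copies of the H2A.Z genes exist in the genome as pseudogenes, and reads that fit more than 1 copy may have been lost or moved.

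Markers were read to check the labelled cell type. Of 10 fibroblast markers, 8 lay above the median gene, with *Vim* at percentile 99.9, *Fn1* at 97.8 and *Thy1* at 92.4, while *Pdgfra* (44.9) and *Dcn* (43.7) lay just below it. Of 4 markers each, 0 epithelial, 1 endothelial (*Kdr*) and 1 macrophage marker (*Cd68*) lay above the median gene, as did *Tubb3* of 3 neural markers ranked. Of the 4 pluripotency markers, *Zfp42* and *Dppa5a* were listed at 0, and *Pou5f1* and *Nanog* had means of 2.43 and 11.5 normalized counts.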

How the data were processed

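Total RNA of 3 WT and 3 Anp32e null MEF cultures was sequenced with a strand-marking kit. According to the methods and the submitters' processing notes, the authors used STAR for alignment to mm10, featureCounts of Subread for counts per RefSeq transcript, and DESeq2. The signal column of the deposited table is the authors' mean over the 6 libraries of counts divided by DESeq2 size factors. Its 5 other value columns hold the authors' comparison of the genotypes (log2 fold change, standard error, Wald statistic, p-value and adjusted p-value) and were not used. No comparison of the genotypes was therefore made, and the planned edgeR test could not be run, since the table has no counts per library.

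Of 42361 transcripts, 42203 were placed on genes with the RefSeq annotation of GRCm38.p6, and 35342 had reads. Exon lengths, coding lengths and positions are those of the GENCODE M21 transcript matched to each RefSeq transcript; its ends can differ from RefSeq's. For each gene the transcript of highest mean that had a length was taken, which gave 18067 of 18582 autosomal genes with reads (97.2%). X and Y genes were left out, as in the study. Levels are means per kb of exon, and a percentile is the share of ranked genes at or below a level. Size factors were computed from the 6 smallest steps of the means and were not assigned to samples or groups. Counting intervals are 95% exact Poisson intervals for levels, and normal intervals on the log scale for ratios, of the summed reads; they cover counting error only. The steps and intervals were tested on simulated data. Python 3.11.15, numpy 2.4.6, pandas 2.3.3, scipy 1.17.1 and matplotlib 3.10.9 were used.

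The members and lists were chosen with earlier results of these data known. Genes named are the 10 members, the highest and lowest 2 of each list, *H2afz*, *H2afv* and *Anp32e*; *Ino80*, *Chd8*, *Chd2*, overlapping genes and markers were named after their values were seen. Alternatives were another transcript per gene, coding length, a minimum mean of 10, X and Y genes kept in, and means not divided by length.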

Additional observations from a re-analysis of the deposited data

How the results depend on the processing

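The median percentile of the 10 members, 84.9, was 79.7 among genes with a mean of at least 10, 85.2 with means not divided by length, 85.4 with the longest transcript of each gene and 77.4 with coding length, an alternative added after seeing the data. With X and Y genes kept in it was 85.0. The count above the median gene was 10 under the minimum mean and without division by length, and 9 with coding length. The ratio of *Ruvbl1* to *Ruvbl2* moved from 0.518 to 0.481 and that of *Srcap* to *Ep400* from 0.953 to 0.888 with coding length. Other ratios moved more with it, that of *Znhit1* to *Srcap* from 10.0 to 24.3, that of *Ruvbl1* to *Znhit1* from 0.776 to 0.361 and that of *Yeats4* to *Dmap1* from 1.64 to 2.86. With coding length all 10 levels per kb were higher, by 1.08 to 2.63 times. Taking the median over a gene's transcripts lowered *Znhit1* from 4390 to 3802 normalized counts, or 0.866 times, beyond its counting interval. *Kat5* fell from 2658, the value of NR_155544, to 2566, which lies inside the counting interval given for NM_178637. *Ep400* moved within its interval, from 4029 to 4026. With the longest transcript *Kat5* had 2597, the value of NM_178637 that its level per kb already uses, and *Ep400* moved within its interval to 4023. No paired analysis was possible because the table gives 1 mean over all libraries, and leaving out replicates, DESeq2 and a test without a filter on low counts were not run for the same reason. Depth limits the levels through a standard error of counting of at most 0.992% of the mean.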
